A study of Mus musculus with 4 samples.

Results

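The AP-1 and EGR immediate early factors are 10 transcription factor genes: the Fos family (Fos, Fosb, Fosl1, Fosl2), the Jun family (Jun, Junb, Jund) and Egr1, Egr2 and Egr3. They were chosen by name, as every probe whose platform gene symbol is one of these 10, case ignored. This gave 11 of 26423 probes, 2 for Junb and 1 for each other gene, or 10 of 17734 named genes. All 11 probes read above 0 on every array and entered the fit. The cells were 3T3-L1, a mouse line of preadipocytes that becomes fat-storing when induced. All samples received for 48 hours the induction mixture known as MDI, 0.5 mM isobutylmethylxanthine (a phosphodiesterase inhibitor that raises cAMP), 1 µM dexamethasone (a synthetic glucocorticoid) and 1 µg/ml insulin. The 2 control samples had no other agent and berberine, an alkaloid found in plants, was added at 13.47 µM to the 2 berberine samples. The labels give a cell line and no animals, and nothing in them says that the samples were separate cultures, so the spread behind each p-value is that between arrays and could be technical. The comparison asks how berberine given during induction altered the level of each factor.

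Immediate early genes are switched on within minutes of a stimulus from factors already present in the cell, and most of their messages are short-lived. Fos and Jun proteins pair through leucine zippers to form AP-1, which binds TGANTCA and related sites. Jun proteins can also pair with each other, whereas Fos proteins need a partner. EGR proteins bind GC-rich sites through zinc fingers. In preadipocytes both groups respond to serum, cAMP and insulin at the start of induction, Egr2 (Krox20) is known to promote the early step that raises Cebpb, and the arrays here were taken long after that first burst.

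The promoters of 4 of the factors that changed are shown so that the letters of known cAMP, serum, AP-1 and EGR response elements in them can be read beside the values. The RefSeq promoter table (GRCm38.p6) held a window of 300 bases, 250 before to 50 after a transcription start, for 7 of the 10 genes and none for Fosl1, Egr1 and Egr3. Capitals mark matches to TGACG (the core of the cAMP response element), TGACNTCA (the AP-1 site of the Jun promoter and the full cAMP response element), GCGNGGGCG (the EGR site), the CArG box bound by SRF, and TATAAA, each searched on both strands along with TGANTCA. A TGACNTCA match can contain a TGACG match. Sequences run 5′ to 3′ on the gene's strand.
Fos (chr12:85473640-85473939, plus strand): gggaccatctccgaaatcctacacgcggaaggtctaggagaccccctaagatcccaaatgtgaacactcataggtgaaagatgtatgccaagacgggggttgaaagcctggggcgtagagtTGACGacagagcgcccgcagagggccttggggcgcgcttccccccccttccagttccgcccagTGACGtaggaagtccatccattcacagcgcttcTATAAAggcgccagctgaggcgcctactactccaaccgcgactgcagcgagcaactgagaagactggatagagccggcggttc
Fosl2 (chr5:32136222-32136521, plus strand): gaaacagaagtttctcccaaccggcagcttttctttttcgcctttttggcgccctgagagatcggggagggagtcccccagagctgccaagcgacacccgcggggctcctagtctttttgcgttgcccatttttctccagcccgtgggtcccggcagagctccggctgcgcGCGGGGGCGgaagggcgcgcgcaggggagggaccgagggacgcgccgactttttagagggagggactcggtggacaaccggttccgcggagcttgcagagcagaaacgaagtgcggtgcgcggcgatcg
Jun (chr4:95052173-95052472, minus strand): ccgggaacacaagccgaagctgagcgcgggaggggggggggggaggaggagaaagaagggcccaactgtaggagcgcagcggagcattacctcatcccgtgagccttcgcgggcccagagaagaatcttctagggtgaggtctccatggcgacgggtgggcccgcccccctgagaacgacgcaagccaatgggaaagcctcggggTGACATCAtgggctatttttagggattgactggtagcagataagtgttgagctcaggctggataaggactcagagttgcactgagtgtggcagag
Egr2 (chr10:67537619-67537918, plus strand, 1 of several listed starts): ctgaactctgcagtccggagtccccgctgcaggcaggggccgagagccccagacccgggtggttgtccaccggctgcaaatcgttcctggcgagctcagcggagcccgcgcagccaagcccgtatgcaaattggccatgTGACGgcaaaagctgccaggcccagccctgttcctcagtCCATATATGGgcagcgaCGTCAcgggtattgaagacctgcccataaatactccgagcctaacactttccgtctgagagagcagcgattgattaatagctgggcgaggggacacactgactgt

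The Fos window held TGACG at 129 and 66 bases before the start and TATAAA at 33. The Egr2 window held TGACG on either strand at 111 and 55 bases before the start, around a CArG box at 72. The Jun window held 1 TGACNTCA match, at 45 bases before the start, and the Fosl2 window 1 GCGNGGGCG match at 79. Fosb had TGACG at 60 and GCGNGGGCG at 50 bases before its start, Junb had TGACG at 106 and TATAAA just after the start, and none of these letters was found in the Jund window. Of 32851 promoter windows of that length, 20.8% held TGACG, 8.83% TGACNTCA, 7.81% TGANTCA, 5.55% GCGNGGGCG, 13.6% TATAAA and 1.63% a CArG box. These matches are letters in a window and say nothing of binding in these cells.

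After quantile normalization, berberine samples had more message for Fos, Fosl1, Fosl2, Jund and Egr2 and less for Jun than induced controls. By the brightest probe of each gene, 5 of the 10 factors rose, 1 fell and 4 did not pass (limma, adjusted p under 0.05 over all probes). Among 17734 genes 30% rose and 18.2% fell, 48.2% in all, so 6 calls in 10 genes lie near the share for the whole array. The median log2 change was 0.58 over the 10 factors and 0.20 over all genes. Both berberine arrays lay apart from both controls at 9 of the 10 genes, Junb being the exception, and 77.5% of all genes were apart in this sense. That count depends on the scaling. In the deposited intensities Egr2 overlapped (895 and 501 in control, 700 and 782 with berberine). Fosb and Egr3 were there lower with berberine. In RNA from whole cultures, fewer cells expressing a gene and less message per cell cannot be told apart. Levels below are quantile-normalized log2 intensities, and each change is berberine minus control with its standard error (SE).

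**Figure D1:**
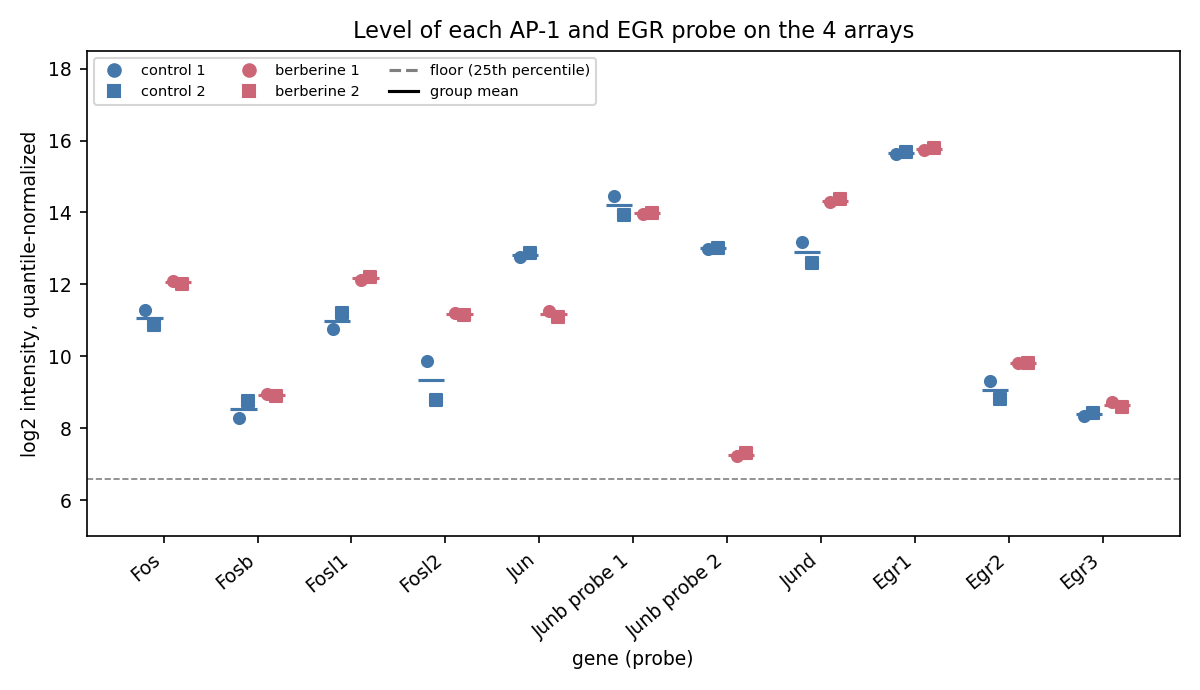
The vertical axis is the quantile-normalized log2 intensity of each of the 11 probes, with points for the 4 arrays, bars for the group means of 2 arrays and a dashed line at the floor (6.58, the 25th percentile of an array). The berberine points lie above the control points for Fos, Fosb, Fosl1, Fosl2, Jund, Egr1, Egr2 and Egr3 and below them for Jun and the dimmer Junb probe (probe 2).

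Within the Fos family, Fos, Fosl1 and Fosl2 rose and Fosb did not pass. Fos, the founding member with a strong activation domain, read 11.28 and 10.86 in control and 12.10 and 12.02 with berberine. That is a 1.99-fold rise (log2 change 0.99, SE 0.18, adjusted p = 0.0104), with the control arrays 0.41 apart and the berberine arrays 0.080 apart. Fosl1 encodes Fra-1, which lacks the C-terminal activation domain of Fos. It read 10.76 and 11.21 in control and 12.13 and 12.21 with berberine, a 2.28-fold rise (log2 change 1.19, SE 0.19, adjusted p = 0.00685). Fosl2 encodes the related Fra-2, and it had the largest rise of the 10 genes. Its levels were 9.87 and 8.79 in control against 11.22 and 11.16 with berberine, 3.61-fold (log2 change 1.85, SE 0.37, adjusted p = 0.0139). The wide SE comes with control arrays that differed by 1.08, more than at any other of the 11 probes, and even the higher control lay below both berberine arrays. Fosb, the remaining activator of the family, was its dimmest member, at 8.29 and 8.76 in control and 8.94 and 8.90 with berberine (log2 change 0.40, SE 0.19, adjusted p = 0.156). Fosb passed when control replicate 2 was left out (0.64, adjusted p = 0.0330), and its sign turned in the deposited values (-0.20).

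The 3 rises in the Fos family passed without either control array and were lost without either berberine array, when the spread comes from the control pair alone. Without berberine replicate 1 the adjusted p was 0.114 for Fos, 0.0845 for Fosl1 and 0.134 for Fosl2, and without berberine replicate 2 it was 0.105, 0.0975 and 0.134. Their log2 changes with an array left out stayed between 0.82 and 1.26, 1.02 and 1.48, and 1.37 and 2.43. In the deposited values, which were not scaled between arrays, Fosl1 still passed (1.01, adjusted p = 0.0197), while Fos (0.79, adjusted p = 0.103) and Fosl2 (1.39, adjusted p = 0.0518) did not.

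The Jun family split, with Jun lower, Jund higher and the 2 Junb probes in disagreement. Jun encodes c-Jun, the main AP-1 partner of Fos proteins and an activator of its own promoter. It read 12.76 and 12.87 in control and 11.25 and 11.09 with berberine. Its level was thus 3.13-fold lower with berberine (log2 change -1.65, SE 0.13, adjusted p = 0.000953). The gap between groups was many times that within them. It was the one call among the 10 genes that held in all 11 alternatives run on it, with log2 changes from -1.78 to -1.19 and adjusted p from 1.74e-06 to 0.0411. Jund encodes JunD, the family member usually present in resting cells. Jund moved the other way, from 13.18 and 12.61 to 14.28 and 14.37, a 2.69-fold rise (log2 change 1.43, SE 0.22, adjusted p = 0.00649). That call held in the deposited values (1.60, adjusted p = 0.0128) and was lost without berberine replicate 1 (adjusted p = 0.0826) or 2 (0.0956).

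Junb encodes JunB, which opposes c-Jun at some targets, and its change could not be settled. The brighter probe read 14.45 and 13.94 in control and 13.95 and 14.00 with berberine, so the groups overlapped (log2 change -0.22, SE 0.20, 95% interval -0.75 to 0.30, adjusted p = 0.412). This value was 0.53 after centring arrays on their median, 0.28 after centring on the 75th percentile, 0.032 without control replicate 1 and -0.48 without control replicate 2 (adjusted p = 0.0496). The other Junb probe read 12.98 and 13.02 in control and 7.22 and 7.30 with berberine. There the level was 53.4-fold lower with berberine (log2 change -5.74, SE 0.12, adjusted p = 5.77e-05). In deposited intensity that probe went from 8879 and 6971 to 117 and 154, against 23397 and 13000 to 16022 and 18181 at the brighter one. The 2 probes of Junb thus differed by 5.52 in log2 change. Among 494 genes with 2 probes above log2 10 in control, Junb included, the median difference between the changes of the 2 probes was 1.16. Of these genes 27 (5.47%), counting Junb itself, differed by at least as much as Junb. Averaging the 2 probes gave a log2 change of -2.98 (adjusted p = 0.000269), which describes neither. Probe sequences were not used here, so the part of the message each one reads is not known.

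Of the EGR genes, Egr2 rose and Egr1 and Egr3 did not pass. Egr1, whose product is the most widely studied EGR factor, was the brightest member probe, above 98.9% of all probes. It read 15.64 and 15.69 in control and 15.74 and 15.78 with berberine (log2 change 0.097, SE 0.12, 95% interval -0.21 to 0.41, adjusted p = 0.544). The call depends on scaling, since Egr1 was higher after centring on the median (0.88, adjusted p = 0.00701) and on the 75th percentile (0.62, adjusted p = 0.0458). Egr2, the Krox20 gene, read 9.32 and 8.82 in control and 9.82 on both berberine arrays, a 1.69-fold rise (log2 change 0.75, SE 0.20, adjusted p = 0.0335). This is the least secure of the 6 calls. It was lost in the deposited values (0.14, adjusted p = 0.789), after centring on the median (0.71, adjusted p = 0.0540) or the 75th percentile (0.45, adjusted p = 0.163), and without berberine replicate 1 (adjusted p = 0.189) or 2 (0.190). Egr3 was the dimmest of these EGR genes, at 8.35 and 8.43 in control and 8.73 and 8.58 with berberine (log2 change 0.26, SE 0.13, adjusted p = 0.161). Its sign turned in the deposited values (-0.33) and after centring on the 75th percentile (-0.023).

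**Figure D2:**
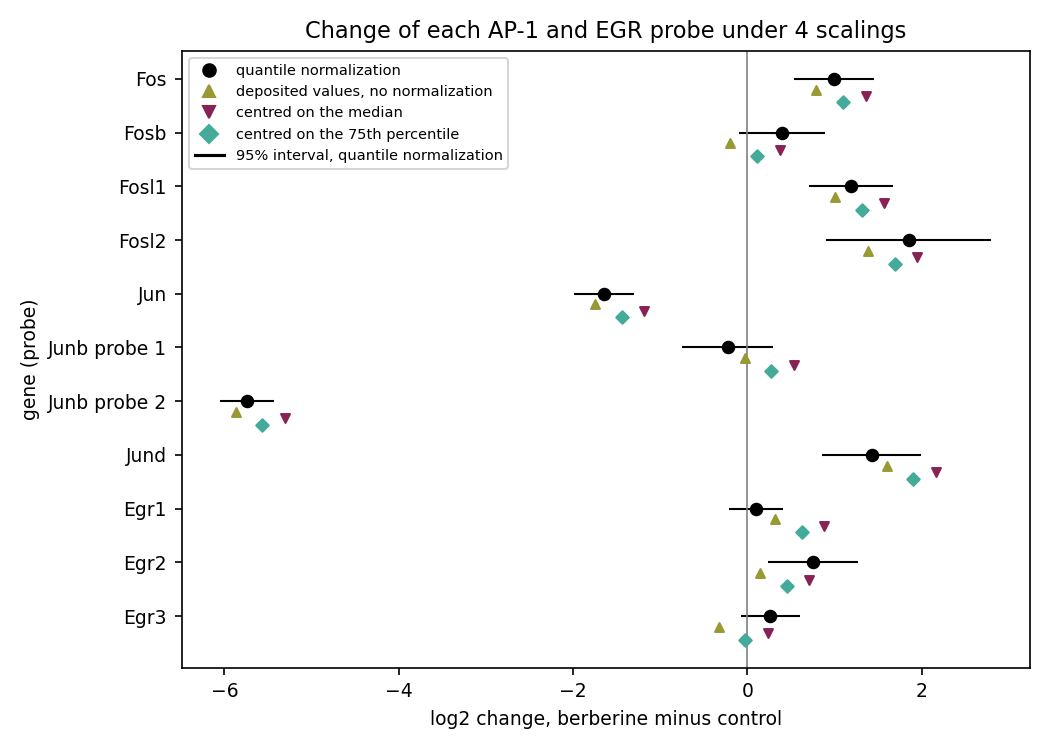
The horizontal axis is the log2 change, berberine minus control, of each of the 11 probes under 4 scalings, and black lines are 95% intervals from the limma fit after quantile normalization. Jun and the dimmer Junb probe (probe 2) lie below 0 and Fos, Fosl1, Fosl2, Jund, Egr1 and Egr2 above 0 under all 4 scalings, while Fosb, the brighter Junb probe and Egr3 lie on both sides.

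A ratio taken within an array is not moved by multiplying the whole array by one factor, so each probe was also set against Jun in the deposited values. Quantile normalization is not such a factor and does move the ratios. The control arrays had a log2 ratio of Jund to Jun of 0.41 and -0.27, and the berberine arrays 3.30 and 3.54. The ratio was therefore 3.35 higher with berberine on the log2 scale, or 3.07 higher after quantile normalization. For Fosl2 the ratio to Jun was higher by 3.14 (3.50 after quantile normalization), for Fosl1 by 2.76 (2.84) and for Fos by 2.54 (2.64). The other differences were 2.07 for Egr1 (1.74), 1.89 for Egr2 (2.40), 1.72 for the brighter Junb probe (1.42), 1.55 for Fosb (2.04) and 1.42 for Egr3 (1.91), so their order depends on the scaling. At each of these 9 probes both berberine arrays exceeded both controls, by at least 1.22 in the deposited values and 1.00 after quantile normalization. The absolute change of Jun itself stood at the 90.2 percentile of all probes. A probe that changed little therefore also rises against Jun, as Egr3 and the brighter Junb probe did. The share of all genes that would do so was not determined, so the separation at these 9 probes cannot be read as a trait of these factors. With 2 arrays a group the smallest two-sided p of an exact permutation test is 0.333, so these ratios are a description. They describe how far the change of each probe differed from that of Jun, and each difference includes the fall of Jun itself. Jun was made the reference after its fall was seen, so the ratios are not separate evidence of a rise in the other factors.

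**Figure D3:**
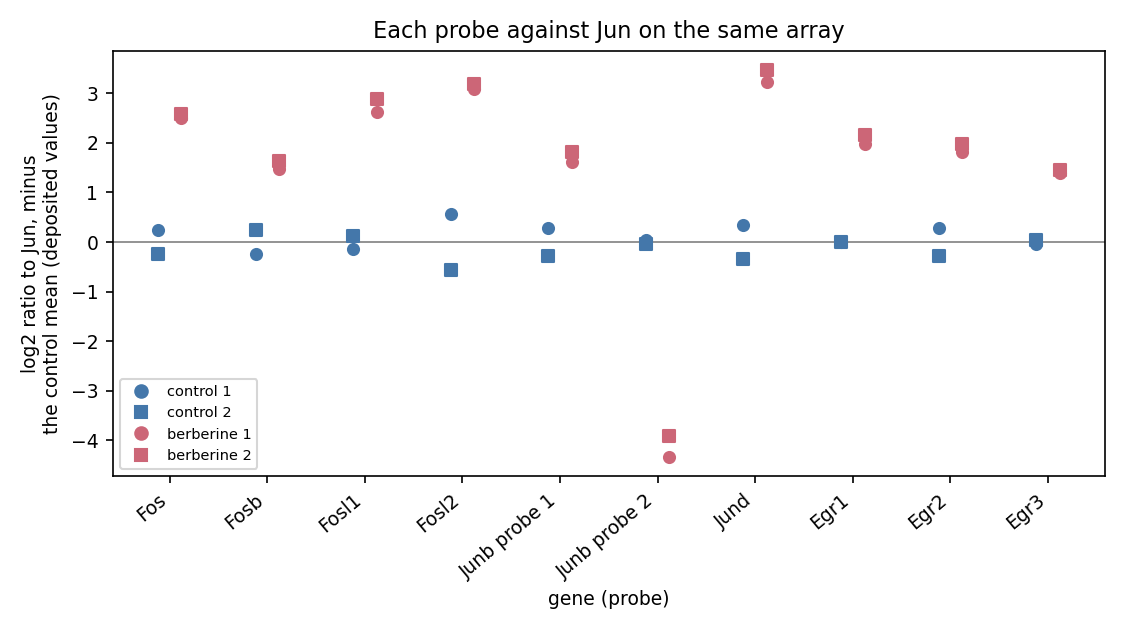
The vertical axis is the log2 ratio of each probe to Jun on the same array in the deposited values, minus its mean in the 2 control arrays, with 1 point per array. All berberine points lie above the controls except at the dimmer Junb probe (probe 2), where the ratio was lower (-4.12). The share of all genes that rise against Jun in this way was not determined.

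AP-1 partners outside the Fos and Jun families moved both ways. These are other leucine zipper factors that pair with Fos or Jun proteins. Of the 11 measured 5 rose, 2 fell and 4 did not pass, with a median log2 change of 0.072. Over all genes 30% rose and 18.2% fell. Batf2 and Batf3, which pair with Jun proteins, rose 6.86-fold (adjusted p = 0.000251) and 3.93-fold (adjusted p = 0.000981). Jdp2, a repressor that pairs with c-Jun, rose from 14.02 and 13.75 to 15.31 and 15.26, 2.64-fold (adjusted p = 0.00195), and Mafk rose 2.87-fold (adjusted p = 0.00336). Atf3, a stress-induced partner, was 1.32-fold higher (adjusted p = 0.0463) with the opposite sign in the deposited values (-0.12). That call was lost with the replicate number as a block (adjusted p = 0.0971) and with any 1 array left out (adjusted p from 0.0633 to 0.192). The falls were at Maff (2.46-fold, adjusted p = 0.00720) and Maf (1.93-fold, adjusted p = 0.0116, or 0.0719 after centring on the median). Without berberine replicate 1 or 2, 3 and 2 of the 11 passed, and Batf2 and Batf3 did in both cases.

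Factors that act on Fos and Egr promoters moved both ways. Of 16 measured SRF, ETS and CREB factors and coactivators, 8 fell, 5 rose and 3 did not pass, with a median log2 change of -0.51. Over all genes 18.2% fell and 30% rose, and a difference of the list from them was not tested. With the probes of a gene averaged, 11 of the 16 fell and 3 rose. Crtc3, a coactivator of CREB, read 11.36 and 11.51 in control and 6.78 on both berberine arrays, a 25.1-fold fall (adjusted p = 7.63e-05). Mrtfa, a coactivator of SRF, went below the floor, at least 16.8-fold lower (adjusted p = 0.000213), Elk3, an ETS factor that works with SRF, fell at least 4.06-fold (adjusted p = 0.000367) and Mef2d fell 3.47-fold (adjusted p = 0.000769). Each of these folds rests on 1 probe. The 5 rises were Ep300 (2.45-fold), Atf1 (2.10-fold), Crem (1.85-fold), Mrtfb (1.61-fold) and Mef2c (1.48-fold). Crem is an inconsistent case, because 2 of its other 3 probes fell (log2 changes -0.98 and -2.58), and Mrtfb had a dimmer probe at -0.34 that did not pass. In the deposited values Crem (adjusted p = 0.493) and Mef2c (0.829) did not pass. The 5 rises were lost without either berberine array. Their log2 changes were 0.50 to 1.21 without berberine replicate 1 and 0.66 to 1.26 without berberine replicate 2. Among all probes called in those 2 fits, falls also outnumbered rises.

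Calls among the kinases that activate AP-1 proteins lay near the share for the whole array (48.2% of genes). Among 11 measured ERK and JNK pathway kinases, 4 rose, 1 fell and 6 did not pass, beside 30% rising and 18.2% falling over all genes, with a median log2 change of 0.58. Mapk8, the kinase JNK1 that phosphorylates c-Jun, rose 1.93-fold (adjusted p = 0.00520), Rps6ka1 1.81-fold (adjusted p = 0.00520) and Map2k2 1.74-fold (adjusted p = 0.00764), and Rps6ka3 fell 1.92-fold (adjusted p = 0.0201). Map2k7, an activator of JNK, rose 2.20-fold at its brightest probe (adjusted p = 0.0148) but fell at both others (log2 changes -0.73 and -1.61). The count depended on scaling, with 1 of 11 passing in the deposited values and 10 after centring on the median, and these rises and the fall were lost without either berberine array.

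Cofactors of EGR proteins gave no single picture. Nab2, a corepressor that binds EGR factors and is induced by them, read 10.65 and 10.42 in control and 12.79 on both berberine arrays at its brightest probe, a 4.77-fold rise (adjusted p = 0.000440). Its other probe fell from 8.60 and 8.85 to 6.53 and 6.44, at least 4.41-fold (adjusted p = 0.000529), and the mean of both changed by 0.0095. Sp1, which competes with EGR proteins for GC-rich sites, fell 10.8-fold at its 1 probe (adjusted p = 0.000390). Egr4 and Nab1 did not pass (log2 changes 0.014 and 0.14), and Wt1 lay under the floor in both groups.

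Other immediate early genes also moved both ways, with 12 of 28 higher, 8 lower and 8 not passing and a median log2 change of 0.18. Over all genes 30% were higher and 18.2% lower. Ptgs2, the inducible cyclooxygenase, rose from 8.73 and 9.11 to 12.06 and 12.07, 8.85-fold (adjusted p = 0.000306). Ccn2, a matricellular growth factor, rose 5.55-fold (adjusted p = 0.000394). Rgs2, a brake on G protein signalling that cAMP induces, fell 6.24-fold, from 13.93 and 13.71 to 11.16 and 11.21 (adjusted p = 0.000292), and Ier5 fell at least 8.30-fold (adjusted p = 0.000319), with its dimmer probe at -0.45 (adjusted p = 0.0504). Without berberine replicate 1 or 2, 8 and 7 of the 28 passed.

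Among 14 genes with textbook AP-1 sites 7 rose, 3 fell and 4 did not pass, with a median log2 change of 0.71. All genes also rose more often than they fell (30% and 18.2%), and a difference of the list from them was not tested. Plaur, the urokinase receptor, rose from 9.57 and 9.52 to 12.00 and 11.94, 5.37-fold (adjusted p = 0.000257). Cd44, a hyaluronan receptor, rose 4.07-fold (adjusted p = 0.000402) and Mmp13, a collagenase, 3.85-fold (adjusted p = 0.000503). Ccnd1, the cyclin that c-Jun and Fos proteins induce for G1 progression, fell 7.13-fold, from 15.64 and 16.01 to 12.97 and 13.02 (adjusted p = 0.000388). The other falls were at Ccl2, a chemokine (5.49-fold, adjusted p = 0.000981), and Mmp9, a gelatinase (1.71-fold, adjusted p = 0.0177). The fall of Mmp9 was lost without berberine replicate 1 (adjusted p = 0.131) or 2 (0.138). Genes with textbook EGR sites gave 3 rises and 4 falls among 10, with a median log2 change of -0.081. Thbs1 (2.03-fold), Pdgfa (1.94-fold) and Vegfa (1.72-fold) rose, and Igf2 (9.36-fold, adjusted p = 0.000317), Id3 (4.88-fold), Tgfb1 (3.65-fold) and Fgf2 (at least 1.53-fold) fell. Without either berberine array the 3 rises and the fall of Fgf2 were lost, and falls outnumbered rises among all probes called there. Cebpb, a gene raised in the early step that Egr2 promotes, had a log2 change of -0.37 and did not pass (adjusted p = 0.270).

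**Figure D4:**
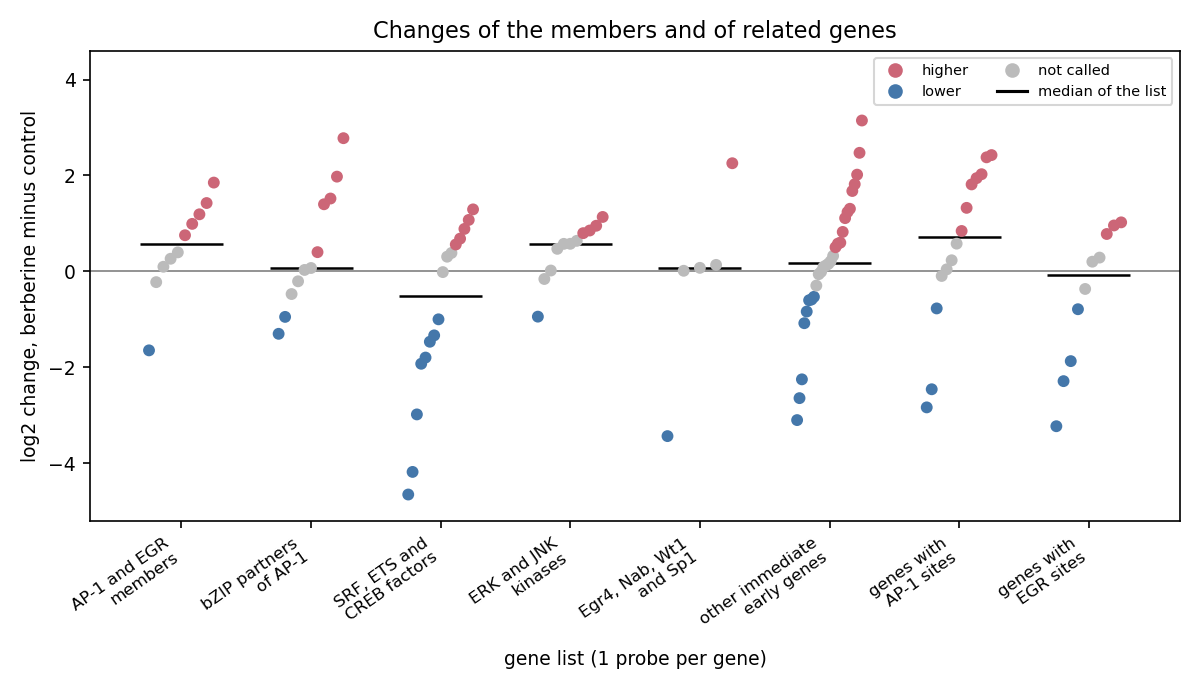
The vertical axis is the log2 change, berberine minus control, at 1 probe per gene, with a point per gene coloured by its call at adjusted p under 0.05 and a bar at the median of each list. The 10 AP-1 and EGR genes have a median of 0.58, the SRF, ETS and CREB factors -0.51 and the genes with AP-1 sites 0.71.

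The genes whose pattern over the 4 arrays lay closest to each family's most changed member were found by the distance between mean-centred log2 levels, over 13875 genes above the floor in both groups. For Jun they were Tmcc2, Rpl10a and Hs1bp3 (distances 0.015 to 0.026). The Rpl10a probe lay near the floor with berberine (6.75 and 6.57). For Fosl2 the closest genes were 2300003K06Rik, Slc8a1 and Tmem229b (0.099 to 0.12) and for Egr2 Glis1, Cep83os and Arhgef18 (0.0082 to 0.014). Within a distance of 0.1 there were 84 genes for Jun, 354 for Egr2 and 1 for Fosl2. With 4 arrays in 2 groups this mostly records a like change and a like control spread.

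Markers of cell state moved alongside these factors, and over all genes 30% rose and 18.2% fell. Genes of mature adipocytes (10 measured) included 7 that fell, 2 that rose and 1 that did not pass, and their summed normalized intensity was 661491 and 642301 in control against 39215 and 40539 with berberine. Adipoq, which encodes adiponectin, fell 125-fold (adjusted p = 5.77e-05). Lipe (2.02-fold) and Slc2a4 (1.49-fold) were higher, but neither passed in the deposited values (log2 change 0.52, adjusted p = 0.224, and 0.074, adjusted p = 0.866) or without either berberine array. Among 6 preadipocyte and fibroblast markers, Pdgfrb, Cd34 and Col1a1 rose and Dlk1, Pdgfra and Col3a1 fell. Their summed levels were 100446 to 105921 in control and 57510 to 60717 with berberine. A dimmer Dlk1 probe had a log2 change of -0.20 and did not pass (adjusted p = 0.355). The falls of Pdgfra and Col3a1 did not pass under the other scalings, the rise of Cd34 did not pass in the deposited values (adjusted p = 0.69) or after centring on the 75th percentile (0.135), and these calls and that of Pdgfrb were lost without either berberine array. Macrophage markers were dim, with a summed level of 1032 to 1209 over 5 genes in all 4 arrays. The defining marker Adgre1 lay under the floor. Cd68 was lower, but its call was lost without berberine replicate 1 (log2 change -0.75) or 2 (-0.73). Csf1r was higher (log2 change -0.075 in the deposited values, and adjusted p = 0.0518 with the replicate block). Of 4 endothelial markers Cdh5 and Tek rose and the list summed to 792 to 849 in control and 1157 to 1236 with berberine, and of 2 muscle markers Des rose. Neither Tek (adjusted p = 0.224) nor Des (0.497) passed in the deposited values, and both were lost without either berberine array, Tek also without either control array. The part of the adipocyte markers' shift in the changes of the AP-1 and EGR genes was not tested.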

How the data were processed

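Per the labels' protocols, Cy5-labelled RNA of each of the 4 samples went on its own 1-colour array. The authors deposited probe intensity on a linear scale, in whole numbers. How the arrays were scanned, background-corrected or scaled is not given in the sources used for this work. Array medians were 423 and 350 in control and 237 and 280 with berberine. After removal of 15 probes with a value of 0 or less, 26408 were put on the log2 scale with no pseudocount, quantile-normalized and fitted with limma 3.58.1 in R 4.3.3 (lmFit, eBayes, Benjamini-Hochberg over all probes, threshold 0.05). Each p rests on 2 residual and 2.89 prior degrees of freedom. The fit was tested on simulated arrays.

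Gene symbols came from the platform table (20377 probes with 1 symbol, 6046 unnamed here), updated through RefSeq, with 18213 matched as current, 2126 as older and 38 kept. The probe with the highest mean stands for a gene. The floor is an intensity of 95.8 (the 25th percentile), a fold against a group under it is a lower bound, and no fold is given where both groups lie under it. The rule for naming took all 10 factors, up to 4 called genes with the smallest p in each of the lists of related and marker genes, and the 3 genes nearest in pattern to the most changed member of each family. The 23 other list genes named, and the ratios to Jun, were chosen after their values were seen. Members and lists were chosen with earlier results of these data known. Alternatives were other scalings, a replicate block, an intensity trend with robust prior, each array left out (with renormalization), log2(intensity + 16), a filter on dim probes, averaging of probes and an added 2-fold minimum. The number of arrays limits the precision.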

Additional observations from a re-analysis of the deposited data

How the results depend on the processing

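The number of AP-1 and EGR genes called, 6 of 10, was 3 in the deposited values and 1 to 8 with an array left out, where 1 came from leaving out either berberine array. It was 6 or 7 with the other scalings, the replicate block, the intensity trend, log2(intensity + 16), the filter on dim probes and averaging of probes, and 4 with at least a 2-fold change added. The 11838 probes called (7164 higher, 4674 lower) became 6687 in the deposited values (2396 higher, 4291 lower), 5806 with at least a 2-fold change added and 3346 to 10787 with an array left out. Lower probes were 39.5% of calls as against 23.6% after centring on the median, where 10694 were higher and 3311 lower, and the median change of all probes was 0.17, or -0.05 without scaling, 0.52 when arrays were centred on the median and 0.26 on the 75th percentile. With an array left out, the log2 change ranged from 0.82 to 1.26 for Fos, 0.15 to 0.64 for Fosb, 1.02 to 1.48 for Fosl1, 1.37 to 2.43 for Fosl2, 1.15 to 1.74 for Jund, 0.51 to 1.01 for Egr2 and -0.48 to 0.032 for the brighter Junb probe, which reversed without control replicate 1. In the deposited values Fos (0.79), Fosl2 (1.39) and Egr2 (0.14) no longer passed and Fosb (-0.20) and Egr3 (-0.33) reversed, as did Csf1r (-0.075), Atf3 (-0.12) and Egr4 (-0.35). After centring on the median Egr2 (0.71) was lost, Egr1 (0.88) gained and the brighter Junb probe (0.53) reversed; on the 75th percentile these were Egr2 (0.45), Egr1 (0.62) and Junb (0.28), and Egr3 was -0.023. Cebpb (0.41 and 0.15) and Adgre1 (0.51 and 0.25), which did not pass, reversed with these 2 centrings, and Egr4 (-0.047) with the 75th percentile. With an array left out, Egr4 ranged from -0.20 to 0.23, Nab1 from -0.11 to 0.38, Wt1 from -0.023 to 0.18 and Adgre1 from -0.48 to 0.20. With probes averaged, Junb was -2.98 and passed, Map2k7 was -0.40 and Crem -0.60. The cause of these differences was not tested, beyond the smaller number of arrays when one is left out.

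Control and berberine arrays share replicate numbers in their titles, and the differences between replicates 1 and 2 correlated at 0.0035 across probes between the groups after quantile normalization and at 0.26 in the deposited values. With the replicate block 12760 probes and 6 of the 10 genes passed, and it changed no call among the 11 member probes, while among the other named genes the calls of Atf3 (adjusted p = 0.0971) and Csf1r (0.0518) were lost. For single probes the block left log2 changes as they were, at 0.99 for Fos, 1.85 for Fosl2 and -1.65 for Jun.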
